A study of Mus musculus with 4 samples.

Results

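Heparan sulfate sulfotransferases were followed across the excitatory neurons of the mouse ventromedial prefrontal cortex (vmPFC). The 9 genes were taken by name from the 31053 mouse genes of the count matrices: the 3-O-sulfotransferases Hs3st1, Hs3st2, Hs3st4 and Hs3st5, the 6-O-sulfotransferases Hs6st1, Hs6st2 and Hs6st3, and the N-deacetylase/N-sulfotransferases Ndst3 and Ndst4. All 9 were found in the matrices of the 4 libraries. Counts of unique molecular identifiers (UMIs) were summed per library over the 9368 neurons that carry a subtype label in the deposited metadata. They are given as CPM, a gene's UMIs per 1000000 summed UMIs of all mouse genes. Because reads come from the 3' end of transcripts, CPM was compared between cell groups for the same gene and never between genes.

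Heparan sulfate is a sugar chain carried by syndecans, glypicans and other proteins of the cell surface and matrix, where it binds growth factors, axon guidance cues and synaptic organizers. In the Golgi, Ndst enzymes first replace acetyl groups of the chain by sulfate, after which an epimerase and 2-O-, 6-O- and 3-O-sulfotransferases add further marks. The 3-O mark is the last and rarest, and the isozymes make different binding sites with it. Heparan sulfate is also an attachment receptor of viruses, among them adeno-associated virus serotype 2.

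The study injected male C57BL/6 mice of 8 weeks with barcoded retrograde rAAV-EGFP viruses, each into its own target of the vmPFC: agranular insula, dorsomedial striatum, mediodorsal thalamus, basolateral amygdala and lateral hypothalamus. All 5 targets were injected on one side of every animal, there was no uninjected group, and no transgene or Cre line was used. The virus enters axons at the injected target and is carried back to the cell body. In the matrices used here the viral transcripts stand under 1 feature named barcode, taken as the sum of the 5 barcodes, which was not tested. The unsorted group had 3 libraries, titled mouse 1, 2 and 3 (called unsorted replicates 1 to 3), and the sorted group was a single library, made from sorted EGFP-positive cells of 3 other mice that were pooled. By the titles and the methods each unsorted library came from its own mouse, all on one chip, so the spread between replicates holds both animals and library preparation. Sorting, animals and library preparation cannot be told apart in the sorted library. Neurons with 5 or more barcode UMIs are called barcode-high, those with 0 barcode-zero. A barcode-zero neuron may still have been labelled, and in the sorted library it had passed a sort for EGFP.

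The unsorted libraries held 83039497 to 87809114 UMIs and 2463 to 2816 listed neurons each, with medians of 21343.5 to 23213 UMIs per neuron. The sorted library held 54728191 UMIs and 1603 listed neurons with a median of 31669 UMIs. Pairs of libraries shared 0 to 4 cell barcodes among listed neurons. The genes that name the 7 subtypes, Calb1, Rorb, Bcl6, S100b, Htr2c, Npy and Syt6, were each highest in the subtype that carries the name. The label calls all cells retrogradely labelled neurons, but of 11895 cells outside the neuron list that passed the study's quality limits, 9679 carried the markers of inhibitory neurons, glia or vessels.

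Most of these enzymes were unevenly spread over the 7 subtypes. Hs3st4, Hs3st2 and Hs6st2 were highest in L6-Syt6, the large deep-layer subtype. Ndst3 was highest in L5-Bcl6 and low throughout layer 6, and Hs3st1 was highest in L2/3-Rorb. Of the 7 genes that reached a mean of 10 CPM in a subtype, 5 had a leading subtype whose lowest unsorted library lay above every unsorted library of every other subtype. The same held for 39.0% of all 10087 genes of that level, and the median ratio of the leading to the next subtype was 1.5 for the 7 genes and 1.11 for all. Since the authors formed the subtypes from the same transcriptomes, these levels are a description and no test was made between subtypes.

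**Figure D1:**
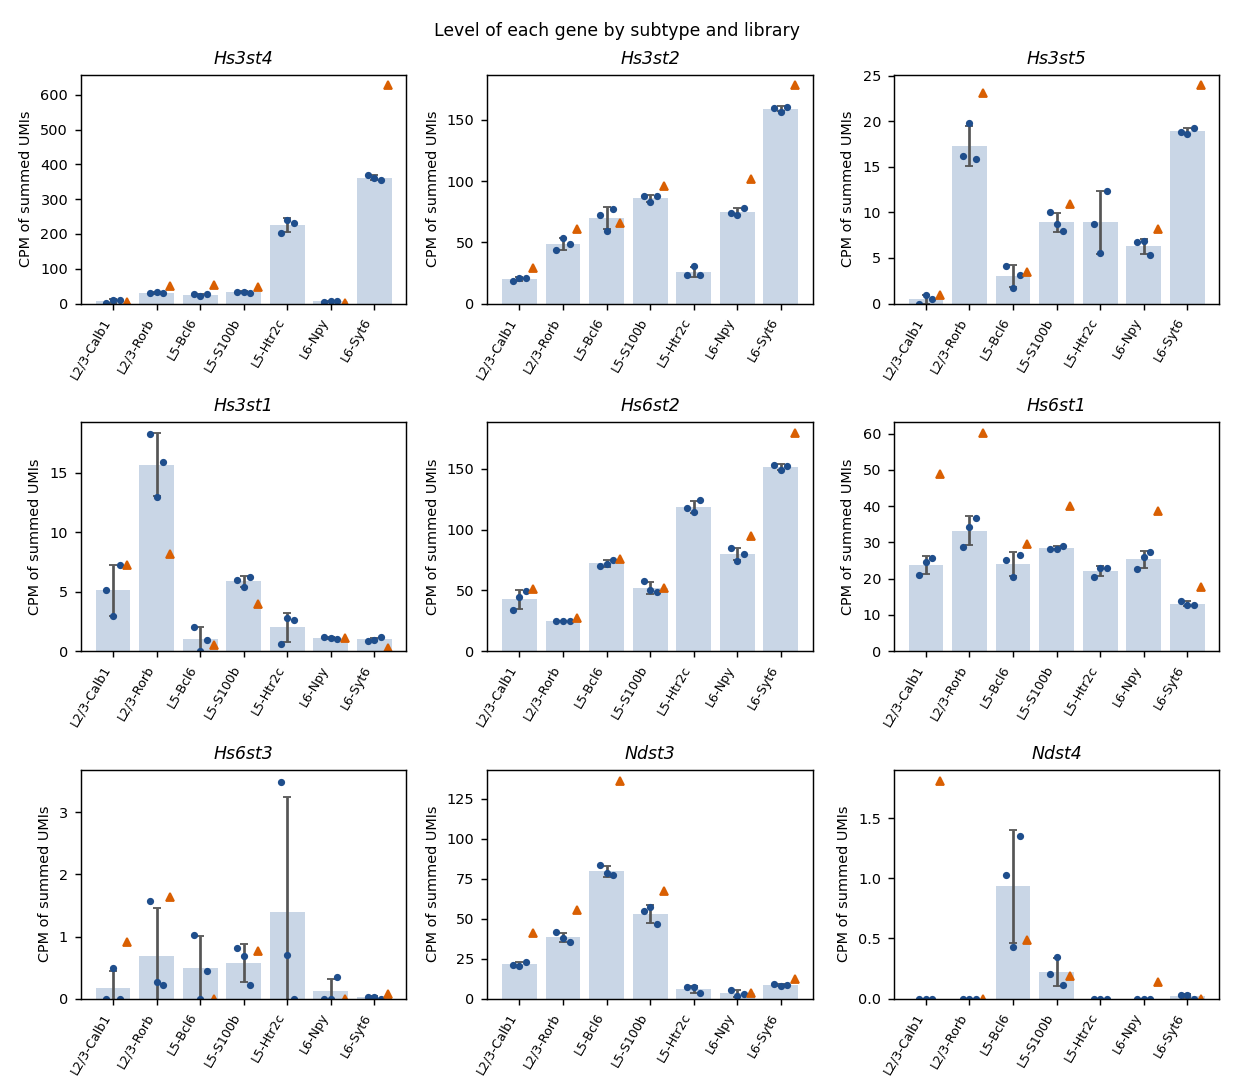
Level of each of the 9 genes by subtype, in CPM of summed UMIs on a linear axis whose range differs between panels. Bars are the mean of the 3 unsorted libraries with their SD, circles the 3 unsorted libraries and triangles the sorted library (not drawn for L5-Htr2c). Hs3st4, Hs3st2 and Hs6st2 peak in L6-Syt6, Ndst3 in L5-Bcl6 and Hs3st1 in L2/3-Rorb.

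Hs3st4 (ENSMUSG00000078591), a 3-O-sulfotransferase whose product is known to be bound by a herpes simplex virus glycoprotein, spans chr7:123982869-124398989 of GRCm38 on the plus strand. In L6-Syt6 its level was 368, 362 and 354 CPM in the unsorted libraries, and in L5-Htr2c it was 204, 241 and 233 CPM. These subtypes did not overlap with each other or with the rest in the unsorted libraries. The sorted library, with 4 L5-Htr2c neurons, put that subtype at 427 CPM. L5-S100b followed at a mean of 33.2 CPM ± 1.64 (SD, n = 3) and L2/3-Rorb at 30.9 ± 2.40, which overlapped. L5-Bcl6 held 24.8 ± 3.08 CPM. L2/3-Calb1 at 7.66 ± 5.74 and L6-Npy at 6.65 ± 1.22 CPM were lowest and overlapped. Layer 6 thus held both the highest and the lowest mean of this gene, and 93.7% of its 56514 UMIs in listed neurons came from L6-Syt6.

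Shares of cells put these subtypes in the same order. With every cell thinned to 2000 UMIs, 50.6% ± 0.947 (SD, n = 3) of L6-Syt6 and 33.9% ± 1.52 of L5-Htr2c neurons had an Hs3st4 UMI, against 0.749% ± 0.0623 of L6-Npy. Without thinning the shares were 98.8%, 88.6% and 4.88%. Cells gated as microglia, with a median of 4249 UMIs, gave 1.38% ± 0.451 thinned and 2.97% unthinned. The L6-Npy share thus lay below that of microglia when thinned and above it when not. Microglia are a poor blank here, since most of their Hs3st4 UMIs sat in cells that also carried Slc17a7 (given further on), so whether the L6-Npy UMIs are background was not tested. Thinning left out 3 neurons of L6-Syt6, none of the other subtypes named here and 222 microglia.

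Hs3st4 also differed between libraries. The sorted L6-Syt6 neurons held 627 CPM, above the 354 to 368 CPM of the unsorted ones, which was 1.73 times their mean. Only 4.37% of 8916 genes were 1.5 times or more higher in sorted L6-Syt6 neurons, and Hs3st4 was the only one of the 6 sulfotransferases measured at 10 CPM or more there. Both barcode groups of the sorted library were high, at 700 CPM in barcode-zero and 606 CPM in barcode-high neurons. Among neurons of 15000 to 35000 UMIs the sorted value was 664 CPM and the unsorted ones were 356 to 371 CPM. That window narrows the depth gap but does not close it, with median UMIs of 29109 and 32051 in the sorted barcode groups against 22151.5 to 25760 in the unsorted ones, and the part of depth was not tested. With 1 sorted library there is no test of this difference.

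The 250 bases before the RefSeq starts of Hs3st4 and Hs3st5, whose highest mean is in L6-Syt6, and of Hs6st1, whose lowest is, are shown to let the start regions of genes with opposite order be compared. They are taken from RefSeq on GRCm38.p6, plus strand, at chr7:123982578-123982827, chr10:36506557-36506806 and chr1:36068150-36068399. Capitals mark the GC box GGGCGG on either strand, which 32.7% of 32851 windows of this length hold.
Hs3st4: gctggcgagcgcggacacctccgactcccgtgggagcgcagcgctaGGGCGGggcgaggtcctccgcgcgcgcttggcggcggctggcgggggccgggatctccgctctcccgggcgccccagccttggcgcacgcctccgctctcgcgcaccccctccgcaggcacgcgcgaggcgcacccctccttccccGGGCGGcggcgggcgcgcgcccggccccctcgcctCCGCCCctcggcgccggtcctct
Hs3st5: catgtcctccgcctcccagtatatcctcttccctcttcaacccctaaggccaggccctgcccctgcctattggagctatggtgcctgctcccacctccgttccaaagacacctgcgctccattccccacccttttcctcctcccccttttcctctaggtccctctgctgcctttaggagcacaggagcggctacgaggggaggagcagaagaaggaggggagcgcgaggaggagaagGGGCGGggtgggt
Hs6st1: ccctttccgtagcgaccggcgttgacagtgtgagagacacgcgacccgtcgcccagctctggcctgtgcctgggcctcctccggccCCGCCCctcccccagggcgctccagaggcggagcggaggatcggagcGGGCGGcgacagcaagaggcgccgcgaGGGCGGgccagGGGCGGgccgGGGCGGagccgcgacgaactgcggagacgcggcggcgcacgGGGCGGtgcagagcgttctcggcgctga
The Hs3st4 window was 82% G or C with 43 CG pairs and 3 GC boxes, that of Hs3st5 62% with 8 pairs and 1 box, and that of Hs6st1 76.4% with 37 pairs and 6 boxes. The median over all windows was 52.4% with 6 pairs. None of the 3 held the TATA box TATAAA (12.4% of windows), the T-box half-site GGTGTGA (3.33%) or the cyclic AMP response element TGACGTCA (1.55%), each searched on both strands. These are matches of letters and not shown to be sites. Windows were found for 8 of the 9 genes, Ndst4 being the exception, and those that overlap an annotated exon, and that of Hs6st3, which was near 0 in neurons, are not printed.

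Hs3st2 (ENSMUSG00000046321; chr7:121391859-121501770, plus strand), a 3-O-sulfotransferase known for its expression in brain, was also highest in L6-Syt6, at 160, 157 and 160 CPM. L5-S100b followed at 85.9 CPM ± 2.94 (SD, n = 3), above L6-Npy at 74.8 ± 2.83. L6-Npy overlapped with L5-Bcl6 at 69.7 ± 9.20 CPM. L2/3-Rorb held 48.6 ± 4.85 CPM, L5-Htr2c 25.8 ± 4.22 and L2/3-Calb1 20.0 ± 1.28, none of which overlapped. L5-Htr2c and L6-Npy thus stood in opposite order for Hs3st2 and Hs3st4. Genes on the opposite strand overlap Hs3st2 (Gm36736, 4933432K03Rik), Hs3st4 (Gm27040) and Hs6st1 (Gm37335), and no same-strand overlap was found for any of the 9.

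Hs3st5 (ENSMUSG00000044499; chr10:36506814-36834397, plus strand) makes, among other products, the antithrombin-binding site. Its mean was 18.9 CPM ± 0.342 (SD, n = 3) in L6-Syt6 and 17.3 ± 2.17 in L2/3-Rorb, and the libraries of these subtypes overlapped. L5-S100b at 8.91 and L5-Htr2c at 8.90 CPM could not be set apart. L6-Npy held 6.29 ± 0.849 CPM and overlapped with L5-Htr2c. L5-Bcl6 at 2.99 ± 1.21 and L2/3-Calb1 at 0.489 ± 0.492 CPM were lowest, so the upper-layer subtypes stood far apart.

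Hs3st1 (ENSMUSG00000051022; chr5:39613935-39755475, minus strand), the main enzyme of the antithrombin-binding site, was a gene of L2/3-Rorb among excitatory neurons, with 18.2, 12.9 and 15.8 CPM in the unsorted libraries. L5-S100b had 5.97, 5.36 and 6.26 CPM and overlapped with L2/3-Calb1 at 5.14, 2.95 and 7.26 CPM. The mean was 1.99 CPM or less in L5-Htr2c, L6-Npy, L5-Bcl6 and L6-Syt6, which overlapped. The sorted L2/3-Rorb neurons held 8.17 CPM, below all unsorted ones.

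Hs6st2 (ENSMUSG00000062184; chrX:51387212-51681856, minus strand), a 6-O-sulfotransferase, shared its leading pair of subtypes with Hs3st4. It stood at 153, 149 and 152 CPM in L6-Syt6 and 118, 114 and 124 CPM in L5-Htr2c, without overlap. L6-Npy at 79.7 CPM ± 5.11 (SD, n = 3) and L5-Bcl6 at 72.1 ± 2.63 overlapped. L5-S100b at 52.0 ± 4.76 and L2/3-Calb1 at 42.5 ± 7.85 CPM overlapped too. L2/3-Rorb was lowest at 24.6 ± 0.107 CPM.

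Hs6st1 (ENSMUSG00000045216; chr1:36068400-36106446, plus strand), the broadly expressed 6-O-sulfotransferase, had no leading subtype that stood apart. L2/3-Rorb held 33.3 CPM ± 4.02 (SD, n = 3) and L5-S100b 28.5 ± 0.424, with overlap. L6-Npy, L5-Bcl6, L2/3-Calb1 and L5-Htr2c, at means of 25.3 down to 22.1 CPM, overlapped from each to the next. L6-Syt6 stood below all of them at 13.9, 12.6 and 12.8 CPM, so the subtype that led for Hs6st2 was the lowest for Hs6st1. Hs6st3 (ENSMUSG00000053465; chr14:119138341-119869815, plus strand), the third 6-O-sulfotransferase, had 59 UMIs in all listed neurons and a mean of 1.40 CPM or less in every subtype.

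Ndst3 (ENSMUSG00000027977; chr3:123526166-123690853, minus strand), the isoform with strong deacetylase and weak sulfotransferase activity, followed another order. Its level was 83.6, 78.3 and 77.1 CPM in L5-Bcl6, above 55.1, 57.4 and 46.8 CPM in L5-S100b. L2/3-Rorb at 38.4 CPM ± 2.96 (SD, n = 3), L2/3-Calb1 at 21.5 ± 1.10 and L6-Syt6 at 8.42 ± 0.726 followed without overlap. L5-Htr2c at 5.74 ± 2.15 and L6-Npy at 3.24 ± 1.95 CPM overlapped. Both layer 6 subtypes and L5-Htr2c were thus the low ones for Ndst3. Ndst4 (ENSMUSG00000027971; chr3:125404076-125728899, plus strand), whose deacetylase is weak, had 21 UMIs over all listed neurons, with 0.935 CPM ± 0.470 in L5-Bcl6, 0.219 ± 0.116 in L5-S100b and 0.0199 or less elsewhere in the unsorted libraries.

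Of 50 further genes of heparan sulfate synthesis, editing, core proteins and binding partners, 34 reached 10 CPM in a subtype, 18 of them with a separated leading subtype and a median ratio of 1.26 to the next. Ndst1, the widely used N-deacetylase/N-sulfotransferase, had 52.1 CPM ± 2.62 (SD, n = 3) in L6-Syt6 and 51.0 ± 1.69 in L5-Htr2c, which overlapped, and 11.3 ± 1.07 in L2/3-Calb1. Both of these subtypes were low for Ndst3. Hs2st1, the 2-O-sulfotransferase, was flatter, from 64.6 ± 2.18 CPM in L6-Syt6 to 111 ± 2.06 in L2/3-Rorb. The endosulfatases that remove 6-O-sulfate outside the cell differed in place: Sulf1 had 96.0 ± 2.18 CPM in L6-Npy and 68.7 ± 1.07 in L6-Syt6, while Sulf2 had 7.88 ± 1.94 in L6-Npy and 138 ± 13.8 in L5-Htr2c. The remaining 3-O-sulfotransferases Hs3st3a1, Hs3st3b1 and Hs3st6 did not exceed a mean of 0.242 CPM in any subtype.

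Over the 21 sums of 7 subtypes by 3 unsorted libraries, the genes most alike to each enzyme were found by Pearson's r of log2(CPM + 1) among 10087 genes. They were Rell1 (r = 0.97) and Cd81 (0.96) for Hs3st4, Fam163b (0.94) and Stmn2 (0.93) for Hs3st2, and Slc3a2 (0.91) and Plekha7 (0.91) for Hs3st5. Hs3st1 was nearest to Cadm3 (0.92) and Gm29674 (0.92). For Hs6st2 they were Chd3 (0.96) and Eci2 (0.95), for Hs6st1 Cnr1 (0.91) and Lmtk2 (0.91), and for Ndst3 Nlgn1 (0.97) and Sphkap (0.94). Hs6st3 (Elmod2, 0.80, and Hmga1, 0.75) and Ndst4 (Rab8b, 0.91, and L3mbtl4, 0.90) have too few UMIs for these to be read. The 3 sums of a subtype share its neurons' identity and the 7 sums of a library its depth, so the r values describe these sums.

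Cells outside the neuron list showed where else the enzymes are used. A gate required at least 50% of a class's markers and fewer than 2 of those of other classes (oligodendrocyte precursors could carry up to 2 oligodendrocyte markers). Hs3st1 was far higher in oligodendrocytes, at 131, 137 and 142 CPM, than in any excitatory subtype. Endothelial cells held 64.7, 61.6 and 73.0 CPM and inhibitory neurons 14.8 CPM ± 1.81 (SD, n = 3). Ndst3 reached 47.8 ± 8.07 CPM in mural cells from 62 UMIs, and at most 9.38 in the other gates. Ndst4, nearly absent from excitatory neurons, had 7.13, 12.4 and 6.35 CPM in inhibitory neurons from 139 UMIs in 61 cells, and at most 0.732 CPM in the other gates. Hs6st2 held 53.9 ± 2.15 CPM in inhibitory neurons and Hs6st1 39.2 ± 4.76 in microglia.

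Gated cells that carried a UMI of Slc17a7, the vesicular glutamate transporter of excitatory neurons, bore on these values unequally. They were 308 of 2851 unsorted microglia and 176 of 1789 oligodendrocytes. In those gates they held 93.6% and 92.6% of the Hs3st4 UMIs. Without them Hs3st4 fell from 34.8 to 2.87 CPM in microglia and from 27.2 to 2.57 CPM in oligodendrocytes. Hs3st2 and Hs6st2 fell likewise, to 2.01 and 2.47 CPM in microglia. Hs3st1 stayed at 156 CPM ± 6.19 in oligodendrocytes and 78.3 ± 2.97 in endothelial cells, Ndst3 at 51.2 ± 8.77 in mural cells, Ndst4 at 7.86 ± 2.11 and Hs6st2 at 53.3 ± 1.01 in inhibitory neurons, and Hs6st1 at 42.6 ± 3.34 in microglia.

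**Figure D2:**
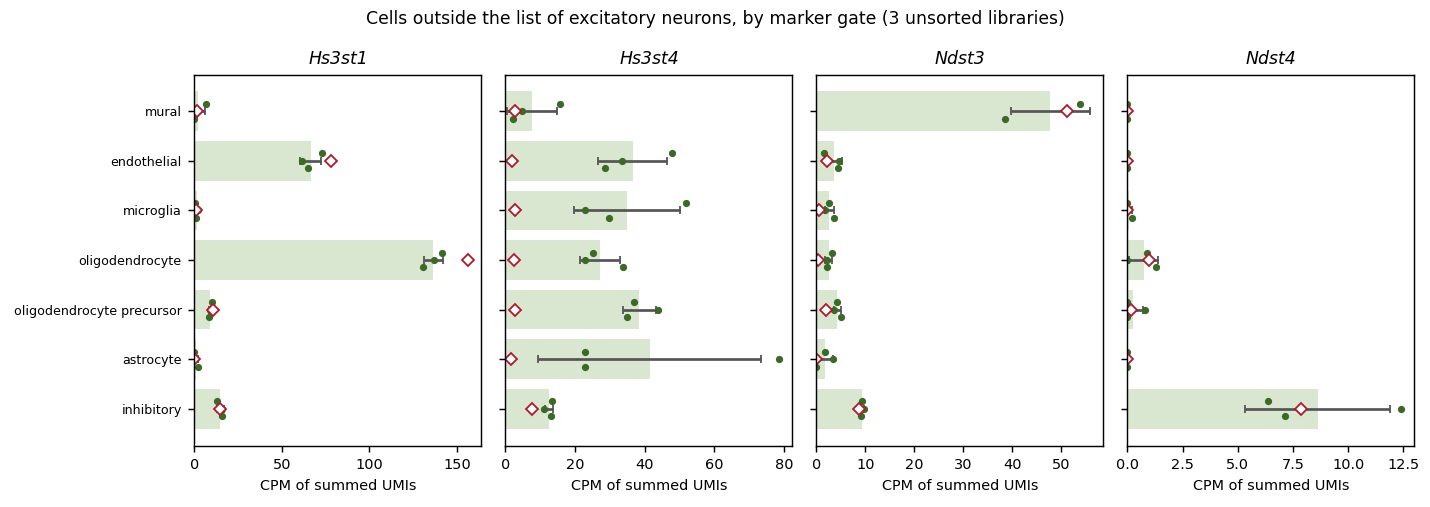
Level of Hs3st1, Hs3st4, Ndst3 and Ndst4 in cells outside the neuron list, by marker gate, in CPM of summed UMIs. Bars are the mean of the 3 unsorted libraries with their SD and circles the libraries, and open diamonds are the mean without cells that carry an Slc17a7 UMI. The diamonds lie at or above the bars for Hs3st1 in oligodendrocytes and Ndst3 in mural cells, and drop to 2.87 CPM for Hs3st4 in microglia.

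The barcode comparison asked whether neurons of the same subtype and library that carried viral transcripts differed in these enzymes from those that carried none. It was run with edgeR's quasi-likelihood test on summed counts, with the library as a block, and a gene was called when its p, adjusted after Benjamini and Hochberg over all genes tested, was under 0.05 and its log2 fold change was 0.5 or more in size. The single called sulfotransferase was Hs3st1 in L5-S100b, a gene that entered the test only through the group in which it was high. L5-Htr2c could not be tested, as no library had 10 neurons in both groups. Directions over libraries and overlap of groups are given below as description. The share of all genes with the same patterns was not counted.

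In L5-S100b, Hs3st1 was higher in barcode-high neurons. Barcode-high neurons held 6.22, 6.28 and 6.94 CPM in unsorted replicates 1 to 3 and 4.41 CPM in the sorted library. Barcode-zero neurons held 2.47, 1.08, 0.967 and 1.39 CPM. The groups did not overlap, but the barcode-zero values rest on 3, 1, 1 and 1 UMIs, against 167 in all on the other side. Hs3st1 passed the count filter through its barcode-high sums alone, so it had to differ to be tested, and the call is no support of its own. The pooled ratio of rates was 3.86 (exact 95% interval 1.74 to 10.7, counting error only). On the log2 scale the difference was 1.99 (SE 0.475, adjusted p = 0.00740, edgeR quasi-likelihood test). It was not called by DESeq2 (2.04, adjusted p = 0.191), without the block (1.96, adjusted p = 0.0925), without unsorted replicate 2 (1.85, adjusted p = 0.0638) or without unsorted replicate 3 (1.74, adjusted p = 0.0554), and it fell below the count filter among neurons of 15000 to 35000 UMIs. Over its alternatives the adjusted p of edgeR or DESeq2 ran from 0.00128 to 0.191. By barcode UMIs the mean was 1.48 CPM at 0, 5.33 at 1 to 4, 4.89 at 5 to 19 and 6.31 at 20 or more. Hs3st1 is also an oligodendrocyte gene here: the summed level of 5 oligodendrocyte markers was 129 to 133 CPM in barcode-high and 122 to 131 CPM in barcode-zero L5-S100b neurons. The 4 endothelial markers summed to a mean of 8.41 and 7.06 CPM. The part of either list in the result was not tested.

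Barcode-high L5-S100b neurons were also the deeper ones, with medians of 25553.5 to 34389 UMIs per neuron over the 4 libraries against 19306.5 to 28185. The same held in L6-Syt6, with medians of 24582 to 38604 against 21684 to 30096.5. CPM adjusts for the total, and values among neurons of 15000 to 35000 UMIs are given where they change a call.

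Another 3 of the 7 tested enzymes in L5-S100b had an adjusted p under 0.05 with a fold below the limit, so 4 of 7 passed on p alone, against 5.98% of all 11477 genes. With the fold limit it was 1 of 7, against 2.70%. Both counts include Hs3st1, which had to differ to be tested, and the 1 is Hs3st1 alone. Neither count is therefore support. DESeq2 put 0 of 7 under 0.05 after adjustment. The unadjusted p was under 0.05 for 5 of 7 with either tool, with edgeR again including Hs3st1. Of all 11477 genes, 1970 were under it with edgeR and 926 with DESeq2. The 4 of 7 needed every unsorted library but not the sorted one: without unsorted replicate 1, 2 or 3 it was 1, 0 or 2 of 7, without the sorted library 4, and without the block 0.

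Hs3st2 was 93.2, 83.0, 88.7 and 103 CPM in barcode-high and 67.5, 55.1, 86.1 and 75.0 CPM in barcode-zero L5-S100b neurons (unsorted replicates 1 to 3, then sorted). It was higher in 4 of 4 libraries, though the groups overlapped across libraries. The gain was 0.40 on the log2 scale (SE 0.101, edgeR adjusted p = 0.0115), and 0.53 without unsorted replicate 3, where it was called (adjusted p = 0.00212). Over all alternatives its adjusted p (edgeR or DESeq2) ran from 0.000868 to 0.294.

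Ndst3 was 57.7, 60.4, 50.4 and 73.5 CPM in barcode-high and 49.4, 51.8, 22.2 and 61.1 CPM in barcode-zero L5-S100b neurons, higher in 4 of 4 libraries. Its barcode effect was 0.43 (log2, SE 0.128, edgeR adjusted p = 0.0357). Unsorted replicate 3 carried much of it, and without that library it was 0.27 (edgeR adjusted p = 0.278). Over all alternatives its adjusted p (edgeR or DESeq2) ran from 0.00420 to 0.563.

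Hs6st2 went the other way. It was 50.6, 45.9, 46.0 and 47.7 CPM in barcode-high and 69.1, 69.1, 58.0 and 58.3 CPM in barcode-zero L5-S100b neurons, without overlap. The fitted log2 difference was -0.40 (SE 0.107, edgeR adjusted p = 0.0207). It was -0.61 and called among neurons of 15000 to 35000 UMIs (edgeR adjusted p = 0.00144). The adjusted p with edgeR was 0.0502 with no count filter, 0.0541 at 1 Tshz2 UMI or less, 0.101 with 1 or more barcode UMIs, 0.146 without unsorted replicate 1, 0.182 without unsorted replicate 2 and 0.195 without the block. With DESeq2 it was 0.275. Means by barcode UMIs were 63.6 CPM at 0, 64.5 at 1 to 4, 55.2 at 5 to 19 and 42.0 at 20 or more.

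**Figure D3:**
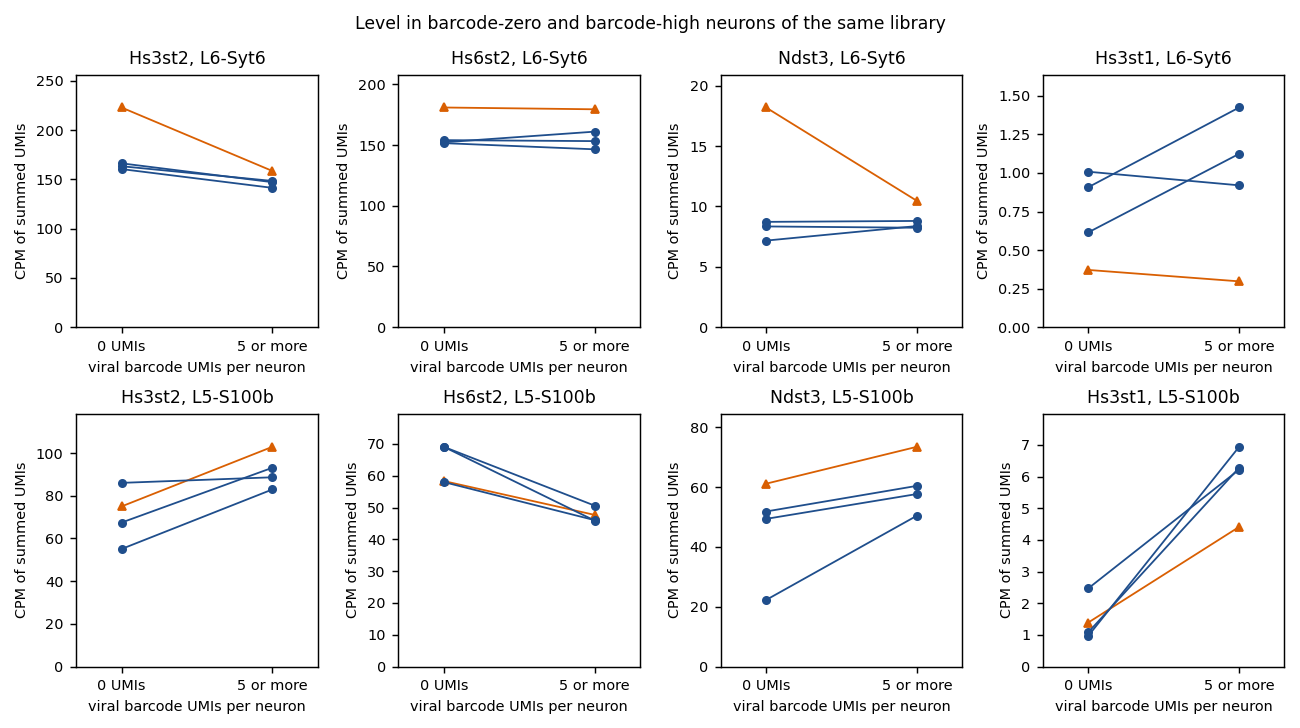
Level of Hs3st2, Hs6st2, Ndst3 and Hs3st1 in barcode-zero (0 UMIs) and barcode-high (5 or more) neurons of L6-Syt6 (top) and L5-S100b (bottom), in CPM of summed UMIs from 0, with an axis range of its own in each panel. Each line joins the 2 groups of a library, circles for unsorted and triangles for sorted. Hs3st2 slopes down in L6-Syt6 and up in L5-S100b in all 4 libraries.

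The remaining enzymes of L5-S100b did not pass. Hs3st4 had a log2 fold change of 0.41 (SE 0.145, edgeR adjusted p = 0.104), and 0.64 among neurons of 15000 to 35000 UMIs, where it was called (adjusted p = 0.0302). Hs3st5 had -0.23 (SE 0.250) and Hs6st1 -0.13 (SE 0.138). Though neither passed, Hs3st4 was higher and Hs6st1 lower in 4 of 4 libraries. Hs6st3 and Ndst4 did not pass the count filter in any subtype. Among the further heparan sulfate genes, 2 of 35 tested were called in L5-S100b by edgeR (1 by DESeq2), Gpc1, a glypican core protein (0.62, SE 0.121, edgeR adjusted p = 0.000861), and Nrp1, a semaphorin co-receptor (1.02, SE 0.273, adjusted p = 0.0183). Their mean levels were 61.6 against 41.5 CPM and 13.8 against 6.83 CPM. Neither was called without the block.

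In L6-Syt6 no enzyme was called, while 1.67% of 13030 genes were. The unadjusted p was under 0.05 for 1 of 7 with edgeR and for 1 of 7 with DESeq2, in both for Hs3st2. Of all 13030 genes it was under 0.05 for 3307 with edgeR and 1896 with DESeq2. Hs3st2 was 148, 141, 147 and 158 CPM in barcode-high and 163, 160, 166 and 223 CPM in barcode-zero L6-Syt6 neurons (unsorted replicates 1 to 3, then sorted). It was lower in 4 of 4 libraries and the groups did not overlap. The fitted log2 difference was -0.19 (SE 0.0572, edgeR adjusted p = 0.0695). Without the sorted library it was -0.14 (SE 0.0293, edgeR adjusted p = 0.000200), smaller in size and past the threshold on p but not on fold. In that setting 2748 of 13028 genes had an edgeR adjusted p under 0.05, against 948 of 13030 with all libraries. Under the other alternatives of Hs3st2 the adjusted p (edgeR or DESeq2) ran from 0.0647 to 0.411. Means by barcode UMIs were 178 CPM at 0, 178 at 1 to 4, 152 at 5 to 19 and 142 at 20 or more.

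Other cells' markers moved with these groups. The 2 near-projecting markers summed to 3.66 to 6.84 CPM in barcode-high and 14.6 to 19.7 CPM in barcode-zero L6-Syt6 neurons, and the 4 mural markers to 6.25 to 11.1 and 23.7 to 35.3 CPM. Among neurons with at most 1 UMI of the near-projecting marker Tshz2, Hs3st2 stood at -0.20 (SE 0.0567). The part of the mural markers was not tested. Hs3st4, for all its level in L6-Syt6, differed little, with a log2 fold change of -0.04 (SE 0.0468, edgeR adjusted p = 0.609) over the 4 libraries. It was 359, 347, 345 and 606 CPM in barcode-high and 369, 365, 355 and 700 CPM in barcode-zero neurons (unsorted replicates 1 to 3, then sorted), lower in 4 of 4. The paper names Hs3st4 among genes that set neurons projecting to both striatum and mediodorsal thalamus apart from those of striatum alone. That contrast was by target, which the pooled barcode used here cannot resolve. Hs6st2 (0.05, SE 0.0486), Hs3st5 (0.10, SE 0.0696), Hs6st1 (-0.06, SE 0.101) and Ndst3 (-0.05, SE 0.141) were near 0, and Hs3st1, at under 1 CPM in both groups, was 0.46 (SE 0.299). None of 34 further heparan sulfate genes was called in L6-Syt6 by edgeR or DESeq2, with 9 and 6 at an unadjusted p under 0.05. Of all 13030 genes, 3307 and 1896 were under it.

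The difference between subtypes was tested itself, in a joint fit of the 4 subtypes with all libraries: both layer 6 subtypes, L5-S100b and L2/3-Rorb. For Hs3st2 the barcode effect in L6-Syt6 minus that in L5-S100b was -0.59 (log2, SE 0.117, edgeR adjusted p = 0.000888), the only called enzyme of 7 in this pair, in which 3.79% of 12081 genes were called. Hs3st2 thus went down with the barcode in L6-Syt6 and up in L5-S100b, in 4 of 4 libraries each. Without the block the difference was -0.60 (edgeR adjusted p = 0.121). Leaving out any single library kept the call. For Hs6st2 it was 0.44 (SE 0.115, edgeR adjusted p = 0.0127), under the fold limit and so not called. Its adjusted p with edgeR was 0.142 without unsorted replicate 1, 0.112 without unsorted replicate 2 and 0.121 without the block. For Hs3st1 the difference was -1.54 (SE 0.655, edgeR adjusted p = 0.171), so its effect was not shown to differ between these subtypes. In the other 5 pairs of subtypes edgeR called 0 of 7 enzymes. An unadjusted p under 0.05 was found for 1 to 3 of 7, and the share of all genes at that level was not counted. Of all genes, 1.78% were called for L6-Syt6 minus L6-Npy, 0.960% for L6-Syt6 minus L2/3-Rorb, 0.886% for L5-S100b minus L6-Npy, 0.455% for L5-S100b minus L2/3-Rorb and 0.0166% for L6-Npy minus L2/3-Rorb. DESeq2 was not run for these differences.

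**Figure D4:**
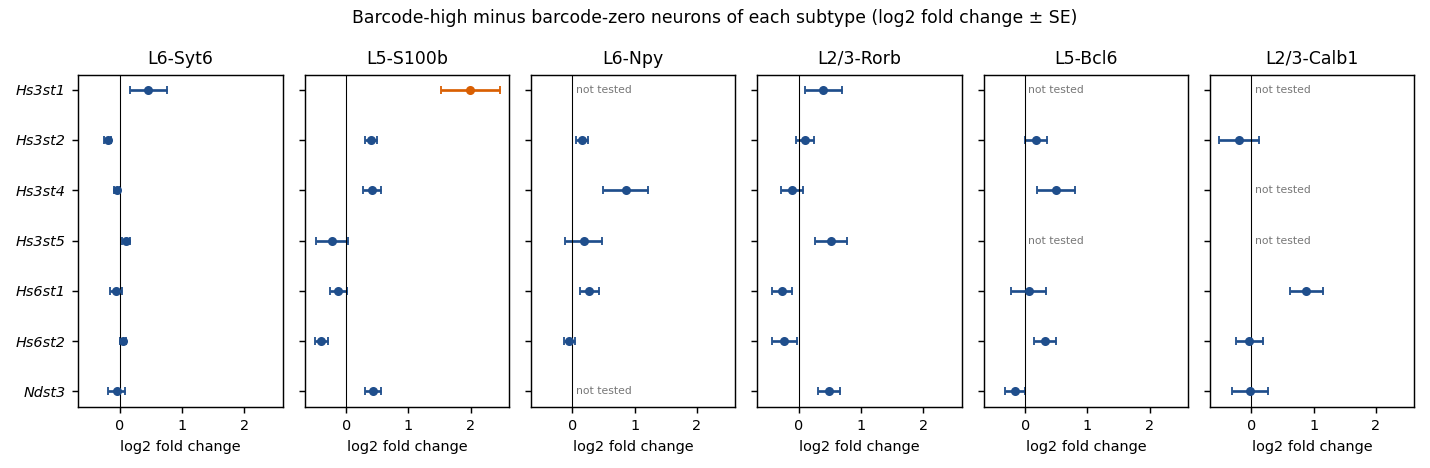
Log2 fold change of barcode-high minus barcode-zero neurons for 7 enzymes in 6 subtypes, with its SE from edgeR. The called gene, Hs3st1 in L5-S100b at 1.99, is drawn in orange, and genes below the count filter are marked as not tested.

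In the other subtypes no enzyme was called. L6-Npy had 0 of 5 called by edgeR against 0.801% of all genes, with 1 at an unadjusted p under 0.05 (Hs3st4, 0.85, SE 0.362, adjusted p = 0.352, at 7.21 against 3.92 CPM). L2/3-Rorb had 0 of 7 against 0.139%, with 1 (Ndst3, 0.48, SE 0.172, edgeR adjusted p = 0.378, at 45.4 against 31.4 CPM). Over the 3 unsorted libraries, L5-Bcl6 had 0 of 5 against 0.0686% and none at an unadjusted p under 0.05. L2/3-Calb1 had 0 of 4 against 0.180%, with 1 (Hs6st1, 0.88, SE 0.261, edgeR adjusted p = 0.322, at 35.6 against 19.3 CPM). Of all genes, 1096 of 10365 in L6-Npy and 681 of 10038 in L2/3-Rorb had an unadjusted edgeR p under 0.05. In L5-Bcl6 it was 579 of 8752 and in L2/3-Calb1 473 of 8340. DESeq2 called 0 enzymes in each of these 4 subtypes, with 0 at an unadjusted p under 0.05. In L6-Npy, 2 of 34 further heparan sulfate genes were called, Nrp1 (0.58, SE 0.143, edgeR adjusted p = 0.0211) and Robo2, a receptor of Slit guidance cues (0.50, SE 0.129, adjusted p = 0.0314), and none in L2/3-Rorb, L5-Bcl6 or L2/3-Calb1. These L6-Npy calls fell to 0 with DESeq2, without the block, with 1 or more barcode UMIs, and without unsorted replicate 1 or 3.

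Sorted and unsorted neurons were set side by side without a test. Of enzymes at 10 CPM or more, those 1.5 times or more higher in the sorted library were 2 of 4 in L2/3-Calb1 (19.3% of all genes), 2 of 7 in L2/3-Rorb (10.5%), 2 of 5 in L5-Bcl6 (9.41%), 0 of 6 in L5-S100b (5.48%), 1 of 3 in L6-Npy (10.7%) and 1 of 6 in L6-Syt6. Hs6st1 was among them in L2/3-Calb1 (49.0 against 23.8 CPM), L2/3-Rorb (60.2 against 33.3) and L6-Npy (38.6 against 25.3). Ndst3 was among them in L5-Bcl6 (136 against 79.7 CPM) and L2/3-Calb1 (40.8 against 21.5). Hs3st4 was among them in L2/3-Rorb (51.5 against 30.9), L5-Bcl6 (53.0 against 24.8) and L6-Syt6. Hs3st1 in L2/3-Rorb, at 8.17 against 15.7 CPM, was lower by that much, a size that 10.0% of genes reached. No enzyme was lower by it in the other subtypes, where 13.6% (L2/3-Calb1), 7.75% (L5-Bcl6), 5.73% (L5-S100b), 9.61% (L6-Npy) and 1.24% (L6-Syt6) of genes were.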

How the data were processed

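The authors aligned the reads to mm10 with Cell Ranger (3.0.2 in the matrix headers) and deposited UMI counts per gene and cell for 4 libraries, with a metadata table of neurons and subtype labels. Their notes also name Seurat 3.1.4. These raw counts were used as deposited. The metadata's own totals differed from the summed counts by at most 70 UMIs per cell. Counts were summed per library and subtype, and per library, subtype and barcode group. The main barcode tests used libraries with at least 10 neurons in both groups, and alternatives needed at least 5. CPM, shares and correlations came from Python 3.11.15 (numpy 2.4.6, scipy 1.17.1, pandas 2.3.3). Barcode groups were tested in R 4.3.3 with edgeR 4.0.16 (TMM factors, filterByExpr, quasi-likelihood test, library as block) and, as an alternative, DESeq2 1.42.0. The block pairs both barcode groups of a library, which hold cells of the same library by construction. The edgeR script was tested on simulated data.

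For cells outside the neuron list the limits were 500 and 8000 for detected genes, 1000 and 60000 for UMIs, and 20% as the highest mitochondrial share. The study's filters were applied to the listed neurons by its authors, and no doublet caller was run here. All 9 enzymes were named, with the further heparan sulfate genes that were called and the 2 most alike genes of each enzyme. The enzymes and gene lists were chosen with earlier results of these data known. Gene positions are from GENCODE vM21 on GRCm38 and promoter windows from RefSeq. Alternatives were another tool, no count filter, 1 or more barcode UMIs, 15000 to 35000 UMIs per neuron, at most 1 Tshz2 UMI, no block, and leaving out each library. Each unsorted library came from its own mouse per the titles and methods, and the sorted one from pooled mice. Intervals cover counting error only.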

Additional observations from a re-analysis of the deposited data

Results flagged for a closer look

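Both results singled out here are differences between L6-Syt6 and L5-S100b in the effect of the barcode group, each found by a test of the difference itself over the 4 libraries. For Hs3st2 the effect in L6-Syt6 minus that in L5-S100b was -0.5921 on the log2 scale (edgeR adjusted p = 0.000888; 0.121 without the block), with barcode-high neurons lower in 4 of 4 libraries of L6-Syt6 and higher in 4 of 4 of L5-S100b. For Hs6st2 the difference was 0.444401 (edgeR adjusted p = 0.0127), under the fold limit and not called, with barcode-high neurons lower in 4 of 4 libraries of L5-S100b and a fitted log2 fold change of 0.05 in L6-Syt6. Without unsorted replicate 1, without unsorted replicate 2 and without the block, the adjusted p of this Hs6st2 difference was 0.142, 0.112 and 0.121 with edgeR.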

How the results depend on the processing

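The count of enzymes called in L5-S100b, 1, was 0 with DESeq2, 2 among neurons of 15000 to 35000 UMIs (Hs6st2 and Hs3st4, with Hs3st1 below the count filter) and 0 to 1 when 1 library was left out, being 0 without unsorted replicate 2. Without the block that pairs the barcode groups of a library it was 0, and the count for the difference between L6-Syt6 and L5-S100b, 1, was also 0. Without unsorted replicate 3 the called enzyme was Hs3st2 in place of Hs3st1. Of the counts of enzymes called or separated, 64 alternative values stayed within the limit of change and 5 did not. No enzyme named for L5-S100b changed direction, nor did Hs3st2 in L6-Syt6. Alternatives for the other log2 fold changes were chosen after seeing the data, and 14 of those values changed sign, each in an enzyme that was not called. Ndst3 in L6-Syt6 was 0.0205 with 1 or more barcode UMIs and 0.0292 without the block, and Hs3st5 in L6-Npy was -0.0772 with 1 or more barcode UMIs. Among neurons of 15000 to 35000 UMIs, Hs3st4 in L2/3-Rorb was 0.0364, Hs6st1 in L5-Bcl6 -0.12 and Hs6st2 in L2/3-Calb1 0.0417. With 1 library left out the range was -0.17 to 0.000682 for Hs6st1 and -0.16 to 0.0978 for Ndst3 in L6-Syt6, -0.12 to 0.0235 for Hs6st2 in L6-Npy, -0.0137 to 0.21 for Hs3st2 and -0.27 to 0.19 for Hs3st4 in L2/3-Rorb, -0.00185 to 0.18 for Hs6st1 in L5-Bcl6, and -0.16 to 0.0680 for Hs6st2 and -0.0618 to 0.0275 for Ndst3 in L2/3-Calb1. The cause of these changes was not tested. The leading subtypes of the 7 enzymes at 10 CPM or more held under every alternative run, but Hs3st4 no longer separated with the sorted library included. Counts of all genes called moved more: 27 (1 or more barcode UMIs) to 309 (without the sorted library) around 218 in L6-Syt6, 56 (no block) to 355 (no filter) around 310 in L5-S100b, 0 (no block) to 115 (no filter) around 83 in L6-Npy, 0 (DESeq2) to 33 around 14 in L2/3-Rorb, 0 (DESeq2) to 31 around 6 in L5-Bcl6, and 2 (DESeq2) to 32 around 15 in L2/3-Calb1. Depth limits Hs3st1 in particular, with 6 UMIs in all barcode-zero L5-S100b neurons, and Hs6st3 and Ndst4 could not be tested in any subtype.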
